A study of Homo sapiens with 4 samples.

Results

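The 56 genes described here encode the integrated stress response and the unfolded protein response of the endoplasmic reticulum (ER), and they were taken by gene symbol from a fixed list. All 56 symbols were found among the 55764 gene names listed for each library, and all 56 had a mean of at least 1 FPKM (fragments per kilobase of a gene after scaling for library size) over the 4 libraries. They hold 9 stress sensors and proteases, the transcription factors ATF4 and XBP1, 17 targets of ATF4, 1 phosphatase subunit, 11 ER chaperones and cochaperones, 7 ER disulphide enzymes, 8 genes of ER-associated degradation and WFS1, an ER membrane glycoprotein.

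Unfolded proteins in the ER lumen are sensed by the membrane proteins encoded by EIF2AK3 (PERK), ERN1 (IRE1) and ATF6. PERK and the related kinases GCN2 (EIF2AK4) and HRI (EIF2AK1) phosphorylate the translation factor eIF2alpha, which lowers protein synthesis in general while ATF4 mRNA is translated more. ATF4 drives genes of amino acid supply and stress adaptation, whereas spliced XBP1 and cleaved ATF6 drive chaperones, disulphide enzymes and degradation factors of the ER. Carcinoma cells use both arms when protein load, nutrient supply or oxygen is altered.

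Bulk RNA was sequenced from TE5, a cell line of human squamous carcinoma of the oesophagus, in 2 libraries of cells that stably expressed human ETS1 from a CMV promoter vector and 2 control libraries of cells with the empty backbone. ETS1 is a transcription factor of the ETS family. Both groups had been through the vector and selection, and neither clonality, time after selection nor the meaning of the replicate numbers 1 and 2 is given in the labels, so p-values measure the spread between these libraries, which may be technical. The comparison asks how RNA levels differ when ETS1 is overexpressed.

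ETS1 itself was listed at 0.491 and 0.509 FPKM in control cells and rose to 1.84 and 1.87 FPKM in the cells with the ETS1 vector (a ratio of 3.71 in FPKM and a log2 change of 0.93 on the log2(FPKM + 1) scale, limma adjusted p = 0.000704). The authors' deposited table gave it a log2 change of 1.84. Reads recovered from the deposited values numbered 40356724 and 44119608 for control 1 and 2, and 57269986 and 56502880 for ETS1 1 and 2. A member had between 504 (EIF2AK3, control 1) and 86644 reads (ATF4, ETS1 1) in a library. The squamous markers KRT5, KRT14, KRT6A and TP63 were listed at 0 in both control libraries and at no more than 0.0165 FPKM in the ETS1 libraries, so these defining markers of the labelled cell type were absent or nearly so, while SOX2 was present. Of 5 epithelial markers, KRT8 was at 3.91 and 3.87 FPKM in control and at 6.48 and 6.59 FPKM in ETS1 libraries (called higher), KRT18 at 10.2 and 10.6 against 8.35 and 8.29 FPKM (called lower), EPCAM at 1.37 and 1.36 against 0.915 and 1.12 FPKM (not called) and CDH1 at 0.571 and 0.567 against 1.08 and 0.917 FPKM (not tested), and KRT19 was at or near 0. Summed markers of other cell types reached 2.13 to 2.27 FPKM in control and 3.09 to 3.19 FPKM in ETS1 libraries for 5 fibroblast genes, almost all of it COL1A1, and at most 0.383 FPKM for 4 leucocyte genes, with PTPRC, CD3E and CD68 at or near 0, and 0.0506 FPKM for 2 endothelial genes. Their part in the results was not tested.

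DNA elements that read out these pathways were searched for on both strands of the RefSeq promoter windows of build GRCh38.p14, which run from 250 bases before to 50 bases after a start site. The ER stress response element, ERSE, is CCAAT and CCACG with 9 bases between, and the factors NF-Y and ATF6 are known to bind its parts. Sites with this spacing are printed below for 5 members with different calls and for HSPA5, which encodes the chaperone BiP and is no member. Capitals mark CCAAT and CCACG, and each line runs 5′ to 3′ on the strand that holds the element in this orientation.
XBP1, minus strand, chr22:28800598-28800626: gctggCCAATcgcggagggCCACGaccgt
CALR, minus strand, chr19:12938379-12938407: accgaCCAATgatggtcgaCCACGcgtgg
CANX, plus strand, chr5:179698773-179698801: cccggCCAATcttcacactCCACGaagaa
PDIA6, minus strand, chr2:10812848-10812876: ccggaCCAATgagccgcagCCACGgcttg
ERO1LB, plus strand, chr1:236282178-236282206: ggcggCCAATgaggcgggaCCACGcgggc
HSPA5, minus strand, chr9:125241386-125241414: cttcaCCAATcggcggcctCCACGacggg

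A second form, ERSE-II, is ATTGG and CCACG with 1 base between. There was 1 copy in the promoter window of SDF2L1 and 2 copies in that of HYOU1, members whose RNA changed in opposite directions, as described below. For SDF2L1 the capitals mark ATTGG and CCACG. The HYOU1 stretch is read along the gene, so its capitals mark the same element as its reverse complement, CGTGG and CCAAT. The first of the 2 HYOU1 copies overlaps a match to TGACGTGG, the core of the UPR element.
SDF2L1, minus strand, chr22:21642105-21642133: agggttttgATTGGtCCACGcttccgagg
HYOU1, minus strand, chr11:119057266-119057398: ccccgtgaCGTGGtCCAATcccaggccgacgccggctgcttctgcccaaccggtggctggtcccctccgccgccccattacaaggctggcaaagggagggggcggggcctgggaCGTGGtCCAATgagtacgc

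The C/EBP-ATF response element, CARE, has the core TGATGNAA and is bound by ATF4 with a C/EBP partner. The sites of 3 ATF4 targets and of PPP1R15B are shown because one of each kind of call is among them. Capitals mark the fixed letters of the core.
ASNS, minus strand, chr7:97872459-97872486: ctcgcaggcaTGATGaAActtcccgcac
CEBPG, plus strand, chr19:33374061-33374088: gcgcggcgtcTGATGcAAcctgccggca
CHAC1, minus strand, chr15:40953252-40953279: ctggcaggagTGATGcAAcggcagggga
PPP1R15B, minus strand, chr1:204412027-204412054: ccgccccggcTGATGcAAcctcacgctg

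Of the 56 genes, 24 rose and 8 fell in the ETS1 libraries and 24 were not called, at a limma adjusted p under 0.05 on log2(FPKM + 1) values. Over all 14306 genes tested, 30.7% were called higher, 28.4% lower and 59.1% either way, against 42.9% higher and 14.3% lower of the members. The median log2 change of the members was 0.08, and that of all genes tested was 0.02. The changes were small: 0 members reached an absolute log2 change of 1, and 4 reached 0.5, which were NUPR1, DNAJB9, PDIA3 and SDF2L1. At an unadjusted limma p under 0.05 there were 34 members. The share of all genes at that threshold was not counted, so this number is no result about the members. In bulk RNA, a change in the share of cells that express a gene and a change in RNA per cell cannot be told apart.

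The groups did not overlap for 51 members, of which 38 were higher and 13 lower in both ETS1 libraries, where 43.1% and 38.9% of all genes tested, 82.0% together, stood apart in this way. The 5 members with overlapping groups were CREB3, MTHFD2, CHAC1, EDEM2 and WFS1. The authors' deposited table called 22 members higher and 8 lower at its own adjusted p under 0.05, against 25.3% and 25.9% of the genes it gives an adjusted p for. The calls of 30 members were shared in direction, ATF5 and CEBPB were called by limma alone, and 0 by the authors' deposited table alone. With voom on the recovered reads, 27 members were called higher and 8 lower, where 33.7% and 29.8% of all genes tested were, 63.5% together. The limma count of members that fell was smaller in each fit with 1 library left out. How far the calls of all genes dropped in those fits was not counted. With quantile normalization the split was 34 higher and 5 lower, where 29.6% and 27.2% of all genes tested were. Of the 24 members not called, 17 were called by at least 1 other way of processing, 10 of them with quantile normalization, all higher. How many of all uncalled genes gained a call in this way was not counted.

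**Figure D1:**
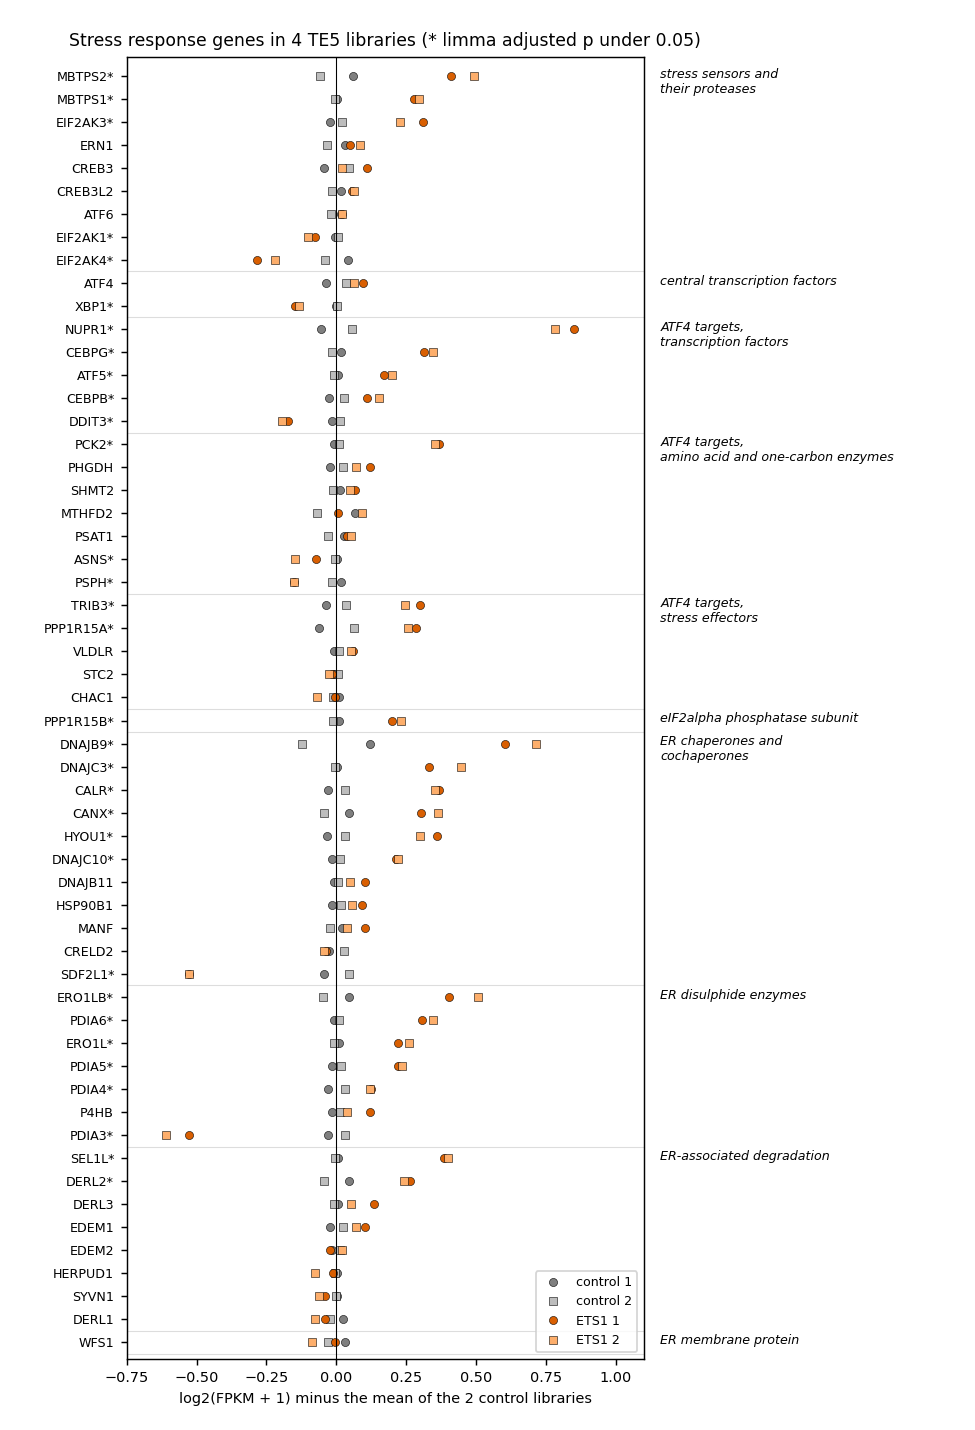
Level of each of the 56 genes in the 4 libraries, as log2(FPKM + 1) minus the mean of the 2 control libraries (horizontal axis), with genes grouped by role and an asterisk for a limma adjusted p under 0.05. Points are single libraries; NUPR1 and DNAJB9 lie farthest to the right and PDIA3 and SDF2L1 farthest to the left, and for most genes both ETS1 libraries lie within 0.5 of the control mean.

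Most members were abundant. The level of 49 of 56 was above the median of the genes tested, 6.33 FPKM, and members ranged from the 15.9th percentile (VLDLR) to the 99.5th (ATF4). FPKM is scaled by one length per gene, which may differ from that of the transcripts expressed. These levels can therefore be compared between genes only roughly. NUPR1 and DNAJB9, the genes that rose most, were at the 85.9th and 60.4th percentile. ATF4, PSAT1 and HSP90B1, the most abundant, had log2 changes of 0.08, 0.05 and 0.07 that were not called, but they were called higher, at 0.24, 0.23 and 0.28, with quantile normalization.

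**Figure D2:**
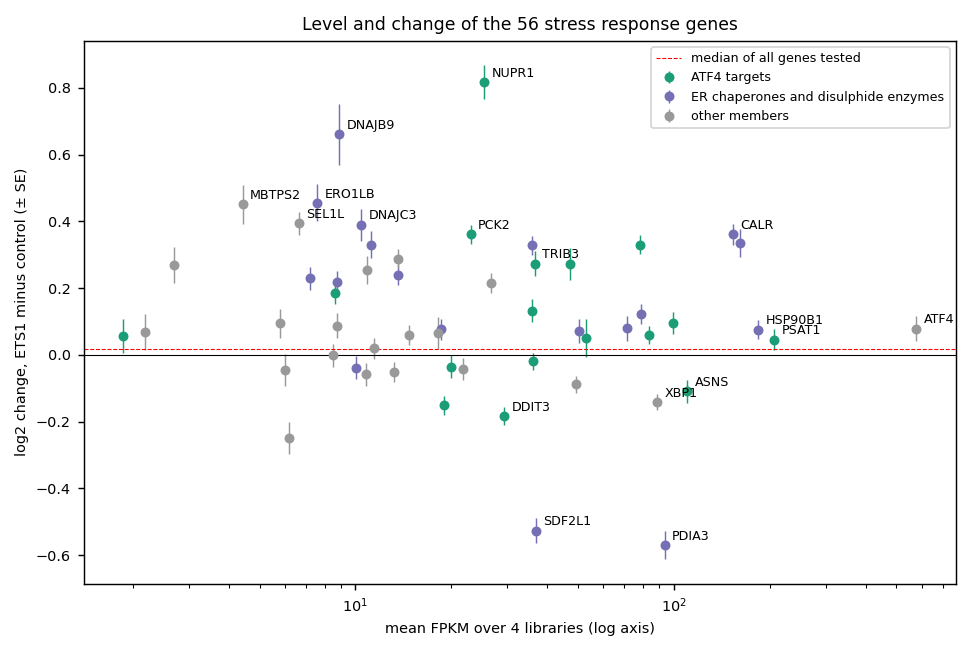
Mean FPKM over the 4 libraries (horizontal, log axis) against the log2 change between ETS1 and control on the log2(FPKM + 1) scale (vertical, bars ± SE from limma) for the 56 genes, coloured by list. The dashed line is the median of all genes tested, 0.02, and the members above 100 FPKM include CALR and CANX near 0.35 and HSP90B1, PSAT1 and ATF4 below 0.1.

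Of the 9 sensors and proteases, 3 rose and 2 fell (33.3% and 22.2%, beside 30.7% and 28.4% of all genes tested). EIF2AK3 rose and EIF2AK4 and EIF2AK1 fell, although the last pair changed sign under some ways of processing, given below. EIF2AK3, which encodes PERK, was at 2.30 and 2.39 FPKM in the control and 3.15 and 2.92 FPKM in the ETS1 libraries, a log2 change of 0.27 ± 0.05 (SE, limma adjusted p = 0.011). The call was lost without ETS1 replicate 1, at a log2 change of 0.23. EIF2AK4, which encodes the amino acid sensor GCN2, was at 7.05 and 6.60 FPKM in control and at 5.42 and 5.72 FPKM in ETS1 libraries (log2 change -0.25, limma adjusted p = 0.00988). Both ETS1 libraries were below both controls. This gene lies on chromosome 15 (chr15:39934146-40035591), whose 363 tested protein-coding genes had a median log2 change of -0.23. The median of the 50 protein-coding genes on each side of it was -0.30, and with that local median removed the change of EIF2AK4 was 0.05. Without ETS1 replicate 1 it was -0.22 and no longer called. EIF2AK1, which encodes the haem-regulated kinase HRI, was at 50.8 and 51.2 against 48.4 and 47.5 FPKM, the smallest called change (log2 -0.09, limma adjusted p = 0.0374), and it was lost in each of the 4 fits with 1 library left out and turned to 0.04 with quantile normalization.

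The proteases that cleave ATF6 and its relatives in the Golgi both rose. MBTPS2, the site-2 protease, was at 3.78 and 3.40 FPKM in control and at 5.10 and 5.46 FPKM in ETS1 libraries, a log2 change of 0.45 ± 0.06 (SE, limma adjusted p = 0.0033) that was 0.20 and still called with the trend on length and GC content removed. MBTPS1, the site-1 protease, was at 12.2 and 12.1 against 14.9 and 15.1 FPKM (log2 change 0.29, limma adjusted p = 0.00164). For both genes the groups were clearly apart relative to the spread between libraries of a group. The membrane-bound factors and the nuclease on which these pathways depend were not called: ATF6 was at 11.5 and 11.2 against 11.5 and 11.5 FPKM, ERN1 at 2.17 and 2.03 against 2.21 and 2.29 FPKM, CREB3 at 17.21 and 18.38 against 19.28 and 18.04 FPKM, and CREB3L2 at 14.6 and 14.2 against 15.0 and 15.1 FPKM. Their log2 changes ran from 0.02 (ATF6) to 0.07 (ERN1 and CREB3). With the trend on length and GC content removed, ATF6 was called lower, at -0.13, and CREB3 higher, at 0.20.

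ATF4 (chr22:39519695-39522685) was the most abundant member, at 548 and 576 FPKM in control and 600 and 587 FPKM in ETS1 libraries. Its log2 change was 0.08 ± 0.04 (SE, limma adjusted p = 0.124), and both ETS1 libraries were above both controls. It was called higher in 4 of 14 other ways of processing, with values up to 0.24. XBP1 (chr22:28794555-28800597), the factor made active by IRE1 splicing, was at 93.0 and 93.2 FPKM in control and at 83.8 and 84.8 FPKM in ETS1 libraries. The control values were within 0.3 FPKM of each other and the log2 change was -0.14 (limma adjusted p = 0.00749), but it was lost without ETS1 replicate 1 and was 0.01 with quantile normalization. Values per gene cannot show how much XBP1 RNA was spliced, nor how much ATF4 protein was made.

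Of the 17 ATF4 targets, 7 rose, 3 fell and 7 were not called (41.2% higher and 17.6% lower, beside 30.7% and 28.4% of all genes tested), with a median log2 change of 0.06. Of the 5 transcription factors among them, 4 rose and 1 fell (80.0% higher, beside the same 30.7%, and 20% lower, beside 28.4%). NUPR1 (chr16:28532708-28539174), a small stress-induced nuclear protein, showed the highest change of any member, from 17.4 and 18.9 FPKM to 33.5 and 31.9 FPKM. That is a ratio of 1.80 in FPKM and a log2 change of 0.82 ± 0.05 (SE, limma adjusted p = 0.000631), and it was called in all 14 other ways of processing, between 0.76 and 0.97. CEBPG, a C/EBP partner of ATF4 with the CARE printed above, went from 70.0 and 68.4 to 86.2 and 88.3 FPKM (log2 change 0.33, limma adjusted p = 0.00116).

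ATF5, itself controlled through eIF2alpha at translation, was at 8.06 and 7.97 against 9.14 and 9.36 FPKM (log2 change 0.19, limma adjusted p = 0.00786), a call lost without ETS1 replicate 2. NUP62 on the opposite strand shares 21.2% of the exonic bases of ATF5, and how reads in the shared bases were assigned is not given. NUP62 was called higher as well, with a log2 change of 0.24. CEBPB was at 33.6 and 34.9 against 37.1 and 38.3 FPKM (log2 change 0.13, limma adjusted p = 0.0231), and this call was lost in 6 of the 14 other ways of processing, among them the fits without control replicate 1 (0.11) and without either ETS1 library, and its value ran from 0.08 to 0.28. DDIT3, which encodes the pro-apoptotic factor CHOP, went the other way, from 31.0 and 31.6 to 27.6 and 27.3 FPKM (log2 change -0.18, limma adjusted p = 0.00486). Its exons share 27.2% of their bases with MARS on the opposite strand, which had a log2 change of -0.18 too, and with the trend on length and GC content removed DDIT3 was at -0.03 and not called.

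The 7 enzymes of amino acid and one-carbon metabolism gave 1 higher and 2 lower calls (14.3% and 28.6%, beside 30.7% and 28.4% of all genes tested). PCK2, the mitochondrial phosphoenolpyruvate carboxykinase, was at 19.9 and 20.1 FPKM in control and at 26.1 and 25.8 FPKM in ETS1 libraries, a log2 change of 0.36 ± 0.03 (SE, limma adjusted p = 0.000897). ASNS, asparagine synthetase, was at 115 and 114 against 109 and 103 FPKM (log2 change -0.11, limma adjusted p = 0.0435). The ASNS call was lost without either control library or without ETS1 replicate 2, its value was 0.06 with quantile normalization, and 44.6% of its exonic bases are shared with another annotated gene on the same strand. The listed pseudogene ASNSP1, whose reads may be confused with those of ASNS, was lower too (log2 change -0.16).

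PSPH, which takes the last step of serine synthesis, was at 20.3 and 19.9 against 18 and 17.98 FPKM (log2 change -0.15, limma adjusted p = 0.0101), a call lost when either ETS1 library was left out and, at -0.08, with the length and GC trend removed. The enzymes of the earlier steps, PHGDH and PSAT1, had log2 changes of 0.10 and 0.05 that were not called. The mitochondrial folate enzymes SHMT2 and MTHFD2 stood at 0.06 and 0.05, not called, and the MTHFD2 groups overlapped, with 27.2% of its exonic bases opposite SLC4A5. PHGDH was called higher in 4 of 14 other ways of processing, at up to 0.26, and PSAT1 was called higher with quantile normalization (0.23) and lower with the local median removed (-0.09). Quantile normalization also called SHMT2 and MTHFD2 higher, at 0.20 and 0.19, as did removing the length and GC trend for SHMT2 (0.09).

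Among 5 stress effectors, TRIB3 and PPP1R15A rose (40.0%, beside 30.7% of all genes tested) and 0 fell. TRIB3, a pseudokinase that feeds back on ATF4, was at 32.3 and 34.0 FPKM in control and at 41.0 and 39.5 FPKM in ETS1 libraries (log2 change 0.27, limma adjusted p = 0.00391). PPP1R15A (GADD34), the inducible subunit that directs a phosphatase to eIF2alpha, went from 40.7 and 44.5 to 52.0 and 51.0 FPKM (log2 change 0.27, limma adjusted p = 0.0079). Its constitutive counterpart PPP1R15B, which has the CARE printed above, was at 24.74 and 24.33 against 28.3 and 28.98 FPKM (log2 change 0.22, limma adjusted p = 0.00354). Both phosphatase subunits were called in all 14 other ways of processing, with PPP1R15B at 0.10 when the local median was removed. CHAC1, which degrades glutathione, STC2, a secreted glycoprotein, and VLDLR, a lipoprotein receptor, had log2 changes of -0.04, -0.02 and 0.06 and were not called. STC2 was called higher with quantile normalization (0.09) and lower with the local median removed (-0.08). CHAC1 lies on chromosome 15, where its neighbours had a local median of -0.33, and with this removed it was called higher, at 0.29 (limma adjusted p = 0.000192).

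Of the 11 ER chaperones and cochaperones, 6 rose, 1 fell and 4 were not called (54.5% higher and 9.09% lower, beside 30.7% and 28.4% of all genes tested). DNAJB9 (chr7:108569568-108574850), a cochaperone of BiP, was at 7.34 and 6.04 FPKM in control and at 10.7 and 11.6 FPKM in ETS1 libraries. The log2 change of 0.66 ± 0.09 (SE, limma adjusted p = 0.00378) had the widest error of any member, and the control libraries differed from each other by more than 1 FPKM, yet both ETS1 libraries were higher than either. DNAJC3, another cochaperone of BiP, was at 8.91 and 8.85 against 11.5 and 12.5 FPKM (log2 change 0.39, limma adjusted p = 0.00263), and at a change of 0.23, still called, with the local median removed. DNAJC10, a disulphide reductase with a J domain, had a log2 change of 0.22 (limma adjusted p = 0.00459), which was -0.07 with the trend on length and GC content removed.

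The lectin chaperones that bind glycoproteins rose side by side. CALR, calreticulin, was at 132 and 137 FPKM in control and 174 and 172 FPKM in ETS1 libraries (log2 change 0.36, limma adjusted p = 0.00117). CANX, calnexin, was at 147 and 138 against 176 and 183 FPKM (log2 change 0.33, limma adjusted p = 0.00297), with changes between 0.21 and 0.51 in the other ways of processing. HYOU1, which exchanges nucleotide on BiP, was at 9.56 and 10.0 against 12.9 and 12.3 FPKM (log2 change 0.33, limma adjusted p = 0.00285). These 3 genes were called in all 14 other ways of processing, and each has an ERSE or ERSE-II printed above. SDF2L1 (chr22:21642261-21644298), which acts with the BiP cochaperone DNAJB11, fell from 42.4 and 45.2 to 30.1 and 30.1 FPKM, a log2 change of -0.53 ± 0.04 (SE, limma adjusted p = 0.000803). It too has an ERSE-II, and its call was kept in all 14 other ways of processing, between -0.57 and -0.34. DNAJB11, HSP90B1 (the ER form of HSP90), MANF and CRELD2 (both secreted ER stress proteins) had log2 changes of 0.08, 0.07, 0.07 and -0.04 and were not called. The first 3 were called higher with quantile normalization, at 0.12, 0.28 and 0.20, HSP90B1 with voom too (0.08), and with the length and GC trend removed DNAJB11 was called lower (-0.10) and MANF higher (0.18).

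Of the 7 disulphide enzymes, 5 rose, 1 fell and 1 was not called (71.4% higher and 14.3% lower, beside the same 30.7% and 28.4%). Both ER oxidases that re-oxidise protein disulphide isomerases rose. ERO1LB (current symbol ERO1B) was at 6.49 and 6.02 FPKM in control and at 8.58 and 9.31 FPKM in ETS1 libraries (log2 change 0.45, limma adjusted p = 0.00266), and at a change of 0.27, still called, with the length and GC trend removed. ERO1L (current symbol ERO1A) was at 12.4 and 12.3 against 14.6 and 15.0 FPKM (log2 change 0.24, limma adjusted p = 0.0033), and at 0.06 and not called with the trend on length and GC content removed.

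The protein disulphide isomerases themselves split. PDIA6 was at 31.5 and 31.9 FPKM in control and at 39.5 and 40.6 FPKM in ETS1 libraries (log2 change 0.33, limma adjusted p = 0.00118), although 25.2% of its exonic bases lie opposite ATP6V1C2. PDIA5 was at 6.47 and 6.63 against 7.81 and 7.89 FPKM (log2 change 0.23, limma adjusted p = 0.00465), and at 0.06 and not called with the local median removed. PDIA4 was at 74.0 and 77.2 against 82.4 and 82.3 FPKM (log2 change 0.12, limma adjusted p = 0.0238), a call lost in 5 of 14 other ways of processing, among them the fits without control replicate 1 (0.09) and without either ETS1 library, and its value ran from 0.09 to 0.28. P4HB, the most studied isomerase, was not called, at a log2 change of 0.08, but was called higher with quantile normalization (0.23) and with the local median removed (0.11). PDIA3 (chr15:43746392-43773279), which works on the glycoproteins held by calreticulin and calnexin, fell from 110 and 115 to 77.3 and 73.0 FPKM, a ratio of 0.671 and a log2 change of -0.57 ± 0.04 (SE, limma adjusted p = 0.000803). It therefore moved against both of its lectin partners.

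PDIA3 lies on chromosome 15, and its neighbours had a local median of -0.29. With this median removed its log2 change was -0.28 and still called, and with theirs removed CALR and CANX were at 0.38 and 0.34. A processed pseudogene on chromosome 1 that the table lists as PDIA3P was at 70.3 and 74.1 FPKM in control and at 50.9 and 52.1 FPKM in ETS1 libraries (log2 change -0.48). Its sequence is close to that of PDIA3, so how reads were divided between the pair is uncertain, but both were lower.

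In ER-associated degradation, 2 of 8 members rose (25.0%, below the 30.7% of all genes tested), 0 fell and 6 were not called. SEL1L, the scaffold of the ubiquitin ligase that takes misfolded proteins out of the ER, was at 5.63 and 5.58 FPKM in control and at 7.64 and 7.72 FPKM in ETS1 libraries (log2 change 0.39, limma adjusted p = 0.00112), and at a change of 0.19, still called, with the length and GC trend removed. The catalytic partner of SEL1L, SYVN1, was not called, at a log2 change of -0.05. DERL2, a channel-like membrane protein, was at 10.2 and 9.53 against 12.1 and 11.8 FPKM (log2 change 0.25, limma adjusted p = 0.0064), and at 0.10 and not called with the length and GC trend removed. Its relatives DERL1 and DERL3 were at log2 changes of -0.06 and 0.09, not called. The DERL3 value is uncertain because 77.0% of its exonic bases lie opposite SMARCB1, a gene with 75.6 to 80.2 FPKM in control. HERPUD1, an adaptor of the ligase, and the mannose-trimming EDEM1 and EDEM2 had log2 changes of -0.04, 0.09 and 0.00, and WFS1 of -0.05. None of these was called. With the local median removed EDEM1 (0.22) and DERL3 (0.15) were called higher and WFS1 (-0.13) lower, and with the length and GC trend removed DERL3 (0.16) was called higher and DERL1 (-0.17) lower.

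The 18 ER chaperones and disulphide enzymes were set against the 17 ATF4 targets. In the ER list 11 rose and 2 fell (61.1% and 11.1%), and in the ATF4 list 7 rose and 3 fell (41.2% and 17.6%), beside 30.7% and 28.4% of all genes tested. The median log2 change was 0.22 in the ER list and 0.06 in the ATF4 list, a difference of -0.16 for ATF4 minus ER. Library by library, the ER median relative to the control mean was -0.01 and 0.01 for control 1 and 2, and 0.22 and 0.23 for ETS1 1 and 2, and the ATF4 median was -0.01, 0.01, 0.07 and 0.07. The replicate libraries thus lay within 0.03 of each other for either list. Members are not replicates of a condition and the lists were chosen with results known, so the difference was not tested. It holds for the genes listed here. The 19 other tested genes of ER folding, HSPA5 among them, had a median of 0.03. Of the other ATF4 pathway genes, the stress regulators and secreted factors had a median of 0.27. Those of amino acid transport, tRNA charging, and amino acid and one-carbon metabolism had medians of -0.06, -0.12 and -0.25.

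The order of the ER and ATF4 medians held in all 14 other ways of processing, but the size of their difference varied. Dropping the filter on low FPKM and using the replicate number as a block cannot change these medians, so they are no checks of the order. The difference was -0.07 with quantile normalization, which raised the ATF4 median to 0.20 and gave 12 higher and 2 lower calls among the ATF4 targets. It was -0.10 with the local chromosomal median removed, with 7 higher and 5 lower calls, where 32.1% and 33% of the 11336 genes with a local median were called. It was -0.09 with the trend on length and GC content removed, with 9 higher and 1 lower, where 29% and 29.1% of the 12583 genes with both values were called. Without ETS1 replicate 2 the difference was -0.15. Leaving the transcription factors out of the ATF4 list gave 3 higher and 2 lower of 12 with a median of 0.05, and leaving the disulphide enzymes out of the ER list gave 6 higher and 1 lower of 11 with a median of 0.22.

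**Figure D3:**
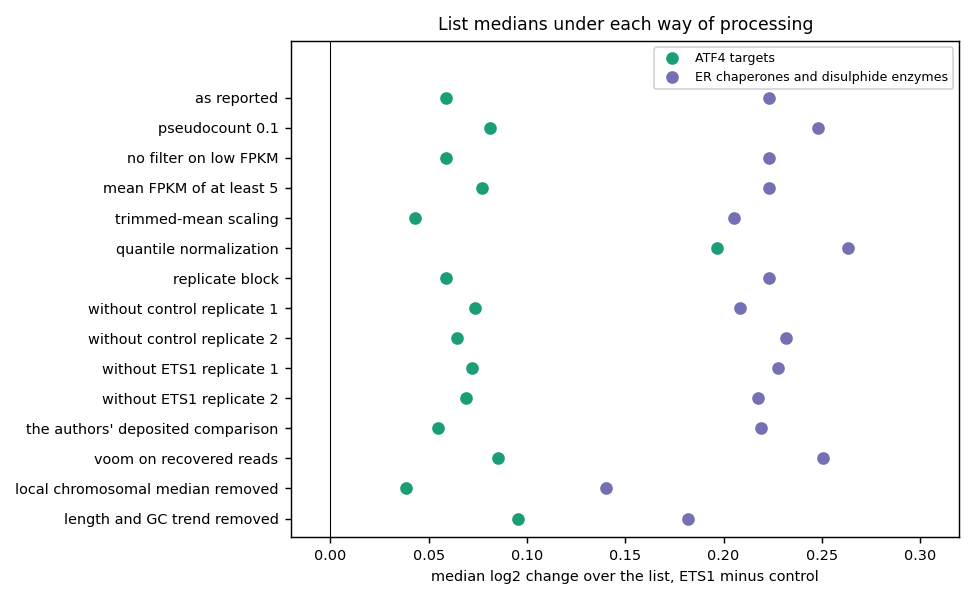
Median log2 change between ETS1 and control (horizontal axis) of the 17 ATF4 targets and of the 18 ER chaperones and disulphide enzymes, as reported and under each other way of processing (rows). The ER median is the higher of the pair in every row, and the pair lies closest together with quantile normalization, at 0.20 and 0.26.

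The promoter elements were present in members of each call. Promoter windows were found for 49 of the 56 members. An ERSE was present in 7 of them (14.3%), against 25 of 27305 genes with a window (0.0916%). Of these 7, 6 were among the 17 ER chaperones and disulphide enzymes with a window. The 25 genes include the 7 members. The element was searched for because it reads out these pathways, so an excess among members was to be anticipated. An ERSE-II was present in 3 members, HYOU1, SDF2L1 and HERPUD1, against 19 genes in all (0.0696%). Of the 10 members with an ERSE or an ERSE-II, 5 rose (CALR, CANX, HYOU1, PDIA6 and ERO1LB), 2 fell (SDF2L1 and XBP1, with the XBP1 call lost without ETS1 replicate 1 and with quantile normalization) and 3 were not called (HSP90B1, CRELD2 and HERPUD1), where 30.7% of all genes tested were called higher and 28.4% lower. HSP90B1 has 2 copies of the ERSE and a log2 change of 0.07.

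A CARE was found in 6 of 49 members (12.2%) and in 4.46% of all genes with a window. These were ASNS, CEBPG, CHAC1, PPP1R15B, HERPUD1 and CREB3L2, of which 2 rose, 1 fell and 3 were not called, close to or below the 30.7% higher and 28.4% lower of all genes tested. The UPR element core TGACGTGG was found in HYOU1 and DNAJC10, against 0.927% of genes. A match is a description of the letters in the window, and binding was not measured. No window was matched for NUPR1, PDIA3, EIF2AK1, PSPH, SHMT2, DERL1 and DERL3.

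**Figure D4:**
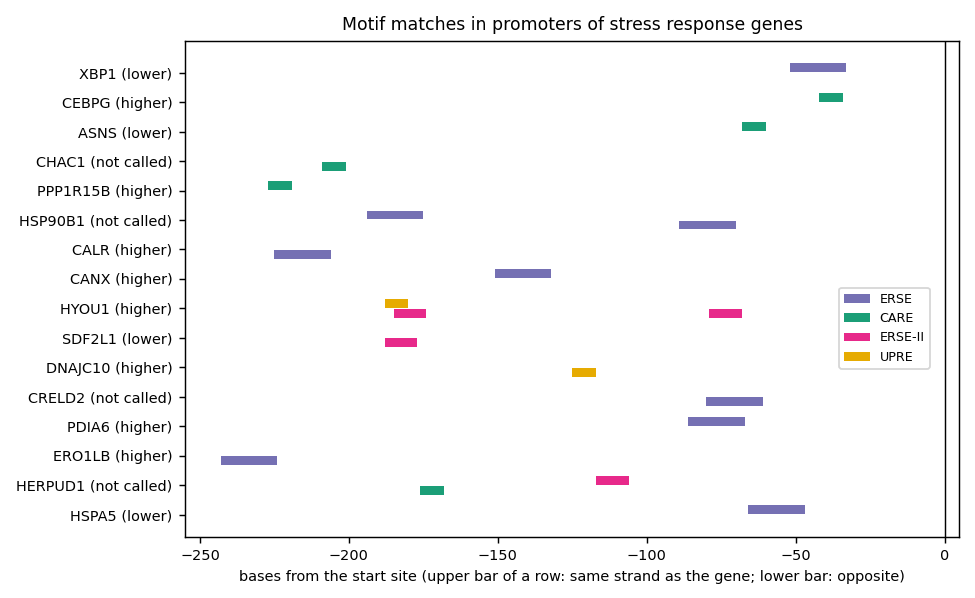
Positions of motif matches upstream of the start site (horizontal axis, bases) in 15 members and in HSPA5, with the limma call of each gene in brackets. The upper bar of a row is a match on the strand of the gene and the lower bar one on the opposite strand, and genes called higher, called lower and not called all carry ERSE copies.

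Genes of the same pathways that are not members were taken from a list of 121, of which 116 were tested. Here 36 rose and 41 fell (31.0% and 35.3%, beside 30.7% and 28.4% of all genes tested), with a median log2 change of -0.03. HSPA5, the gene of BiP, with the ERSE printed above, was at 240 and 243 FPKM in control and at 211 and 203 FPKM in ETS1 libraries (log2 change -0.23, limma adjusted p = 0.00358). It lies on chromosome 9 in a region with a local median of -0.31. HSPA5 thus fell while DNAJB9, DNAJC3 and HYOU1, whose products act on BiP, rose, but it was called higher, at 0.08, with the local median removed (adjusted p = 0.0477 in limma) and was at -0.03 and not called with quantile normalization.

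Other ATF4 pathway genes were called in both directions in each of 4 lists, which can be read against the 30.7% higher and 28.4% lower of all genes tested. No difference between the lists was tested. Among 14 stress regulators and secreted factors, 8 rose and 3 fell (57.1% and 21.4%), with a median of 0.27. ADM2, a peptide hormone, was at 0.745 and 0.782 FPKM in control and at 5.51 and 5.57 FPKM in ETS1 libraries (log2 change 1.89 at a ratio of 7.26), DDIT4, an inhibitor of mTORC1 signalling, had a log2 change of 0.82 at a ratio of 1.85 in FPKM, and the factor ATF3 one of 0.69. FGF21, a secreted stress hormone, was at 0.736 and 0.501 FPKM in control and at 1.68 and 1.97 FPKM in ETS1 libraries, a ratio of 2.95 that log2(FPKM + 1) gives as 0.80, from 29 to 146 reads. The 3 that fell, named after their values were seen, were EIF4EBP1 at -0.57, TNFRSF10B at -0.48 and SESN2 at -0.18. With the local median removed EIF4EBP1 and TNFRSF10B were at -0.33 and -0.12, and SESN2 was not called with quantile normalization (-0.05). Of 8 further genes of amino acid and one-carbon metabolism, 2 rose and 5 fell (25.0% and 62.5%, median -0.25), with ALDH1L2 at 0.43, PYCR1 at -0.41 and MTHFD1L at -0.34. Of 13 genes of tRNA charging (aminoacyl-tRNA synthetases and the tRNA exporter XPOT), 3 rose and 7 fell (23.1% and 53.8%, median -0.12), with LARS at -0.32, TARS at -0.29 and XPOT at 0.27. Among 9 amino acid transporters 3 rose and 4 fell (33.3% and 44.4%), with the cystine transporter SLC7A11 at 0.55, SLC1A4 at 0.33 and SLC7A5 at -0.30. The length and GC trend took SLC7A11 to 0.29, ALDH1L2 to 0.29 and XPOT to 0.12 when removed, and quantile normalization took SLC7A5 to -0.14 and TARS to -0.13, all still called.

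EIF2S1, which encodes the kinase target eIF2alpha, was at 18.3 and 17.9 FPKM in control and at 15.0 and 14.6 FPKM in ETS1 libraries (log2 change -0.27, limma adjusted p = 0.00244), and was at -0.41 with the local median removed. Of 9 genes for eIF2, its exchange factor eIF2B and the kinase PKR, 6 fell and 1 rose (66.7% and 11.1%), beside 28.4% lower and 30.7% higher of all genes tested. EIF2B3 was at 14.4 and 14.7 FPKM in control and at 9.95 and 9.45 FPKM in ETS1 libraries (log2 change -0.54), EIF2B4 had a log2 change of -0.38, and EIF2AK2, the gene of PKR, the fourth eIF2alpha kinase, was the gene that rose (0.47, and 0.25 with the length and GC trend removed). Of the eIF2alpha kinases, then, the genes of PERK and PKR rose and those of GCN2 and HRI fell, with the sign of GCN2 turning when the local median was removed and that of HRI with quantile normalization.

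**Figure D5:**
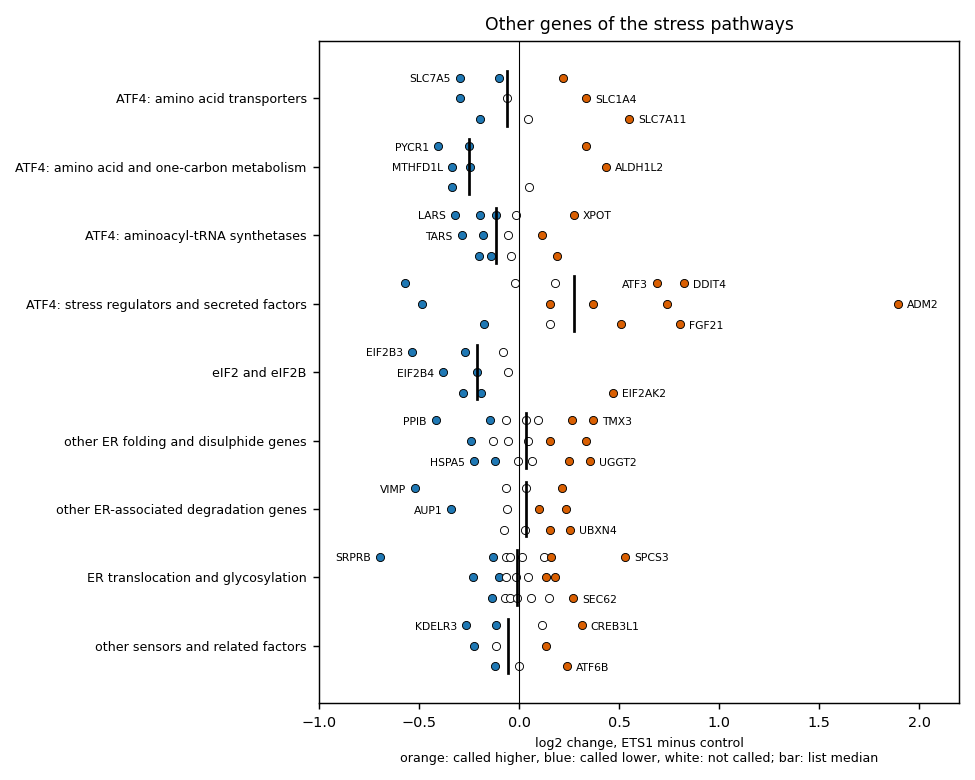
Log2 change between ETS1 and control (horizontal axis) of 116 tested pathway genes outside the set, in 9 lists (rows), with up to 3 called genes of each list named, beside ATF3 and HSPA5. Points are genes, coloured by limma call, and the bar is the median of the list: it is highest for the stress regulators and secreted factors, at 0.27, and lowest for amino acid and one-carbon metabolism, at -0.25.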

How the data were processed

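Bulk RNA-seq of 2 control and 2 ETS1 libraries of TE5 was analysed from 2 deposited tables, grouped by the labels. The authors computed FPKM per gene, per the file headers. HISAT2, HTSeq, DESeq2 and the build GRCh38 (hg38) are named in the submitters' processing notes, without versions, and the use of strand is not given in the sources used here. The authors' comparison table holds a mean normalized count per gene (a signal averaged over libraries), a log2 fold change, its standard error and p-values, per the file headers.

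FPKM was analysed as log2(FPKM + 1) for the 14306 genes with a mean of at least 1 FPKM, with limma 3.58.1 in R 4.3.3: a group term, an intensity trend, two-sided tests and Benjamini-Hochberg adjustment over all genes tested at 0.05. There were 2 residual and 2.84 prior degrees of freedom. This scale understates the change of genes with low FPKM. An exact permutation test of 2 against 2 libraries cannot go below p = 0.333. Whole reads were recovered by combining FPKM with the mean normalized count: all members' values (100%) fell within 0.05 of a whole number. Voom was run on these reads as an alternative. Positions and exon overlaps are from GENCODE 29 on GRCh38, matched by gene name or synonym. Promoters are from RefSeq.

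The script was tested on simulated data. The members, roles and lists, and with them the rule for named genes, were chosen with earlier results of these data known. That rule named all sensors, ATF4, XBP1, up to 5 called members per role and direction with the largest change, and up to 3 called genes of each other list, besides HSPA5 and ATF3. The planned description of protein features was not made here.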

Additional observations from a re-analysis of the deposited data

How the results depend on the processing

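Of the 32 called members, 18 (16 higher, 2 lower) kept direction and threshold in each of the 14 other ways of processing. MBTPS2 and EIF2AK3 had 13, as they were not tested at a minimum of 5 FPKM. In at least 1 way, 5 called members changed sign. How many of all called genes kept direction and threshold was not counted. The median of all genes moved by less than 0.1. The ATF4 and ER medians were 0.0812 and 0.2479 with a pseudocount of 0.1, 0.0428 and 0.2055 with trimmed-mean scaling, 0.1969 and 0.2634 with quantile normalization, 0.0854 and 0.2508 with voom, 0.0383 and 0.1403 with the local chromosomal median removed, and 0.0956 and 0.1817 with the length and GC trend removed. With a minimum of 5 FPKM the ATF4 median was 0.077 and the difference -0.146. The difference was -0.0665 (quantile), -0.1021 (local median) and -0.0861 (length and GC). Quantile normalization gave 5 members lower and 12 ATF4 targets higher, and lower ATF4 targets numbered 5 (local median) and 1 (length and GC). Leaving out 1 library at a time, with the lone library of that group assumed to vary like the other group, gave 4 to 6 members lower, 1 to 2 ATF4 targets lower, ATF4 medians of 0.0643 to 0.0735 and differences of -0.1675 to -0.135. Signs reversed with quantile normalization for EIF2AK1 (0.0421), XBP1 (0.0101), ASNS (0.0616), CHAC1 (0.0204), STC2 (0.093) and HERPUD1 (0.0184), and in the authors' deposited table for ATF6 (-0.002). With 1 library left out, MTHFD2 ranged from -0.0182 (without control replicate 2) to 0.1177, and EDEM2, reversed without control replicate 2 (0.0131) and without ETS1 replicate 1, from -0.0231 to 0.0196. With the local median removed they reversed for ATF6 (-0.0351), EIF2AK4 (0.0526), CREB3 (-0.0538), PSAT1 (-0.0893), PHGDH (-0.0234), CHAC1 (0.2905), VLDLR (-0.1004), HSP90B1 (-0.0025), DNAJB11 (-0.0049), DERL1 (0.0521) and HSPA5 (0.0801). With the length and GC trend removed they reversed for ATF6 (-0.1301), ERN1 (-0.0161), CREB3L2 (-0.0219), MTHFD2 (-0.0409), CHAC1 (0.0989), VLDLR (-0.0947), HSP90B1 (-0.0141), DNAJB11 (-0.1011), DNAJC10 (-0.074), EDEM2 (0.064) and WFS1 (0.0001). The cause was not tested. With the replicate number as a block, 23 members were higher and 6 lower, and ASNS, EIF2AK1 and PDIA4 lost their call. The share of all genes called in that fit was not counted. The same-numbered libraries did not deviate together (correlation -0.05), and the labels do not say what the numbers mark. The smallest called change was 0.0889, at 504 reads or more for any member in any library.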

Other observations

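Genes that carry proteins into the ER and glycosylate them were called in both directions: of 22 tested, 5 rose and 5 fell (22.7% each), with a median log2 change of -0.01, beside 30.7% higher and 28.4% lower of all genes tested. SRPRB, a subunit of the receptor for the signal recognition particle, was at 39.5 and 38.6 FPKM in control and at 23.8 and 23.6 FPKM in ETS1 libraries (log2 change -0.70, limma adjusted p = 0.000439). SPCS3, a subunit of the signal peptidase, was at 14.6 and 13.4 against 20.2 and 21.1 FPKM (log2 change 0.53, limma adjusted p = 0.00145), and SEC62, of the translocon, had a log2 change of 0.27. With the length and GC trend removed SPCS3 was at 0.30, still called, and SEC62 was at 0.05 and not called. The other tested genes of ER folding gave 6 higher and 5 lower of 19 (31.6% and 26.3%), with the proline isomerase PPIB at -0.42, the disulphide enzyme TMX3 at 0.37 and the glycoprotein folding sensor UGGT2 at 0.35. PPIB, on chromosome 15, was at -0.19 with the local median removed. With the length and GC trend removed UGGT2 was at 0.14, still called, and TMX3 at 0.14, not called, and the TMX3 call was also lost without ETS1 replicate 1 (0.36) and without ETS1 replicate 2 (0.37).

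Of 12 further genes of ER-associated degradation tested, 5 rose and 2 fell (41.7% and 16.7%, beside 30.7% and 28.4% of all genes tested), with VIMP at -0.52, AUP1 at -0.34 and UBXN4 at 0.25 on the log2 scale. AUP1 was at -0.20 with quantile normalization and UBXN4 at 0.14 with the length and GC trend removed. Among 10 other sensors and related factors, 3 rose and 4 fell (30% and 40% of the 10). These included ATF6B, the paralogue of ATF6, at 0.24, CREB3L1, a relative of CREB3L2, at 0.31, and KDELR3, a receptor that returns chaperones to the ER, at -0.27. The CREB3L1 call was lost in 5 of 13 other ways of processing, among them the fits without control replicate 2 (0.22) and without ETS1 replicate 2 (0.24). The difference between ATF6B and ATF6, which was not called, was not tested.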
